A study of Mus musculus with 8 samples.

Results

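The genes described here are 35 genes of presynaptic vesicle release, the set of proteins that holds transmitter vesicles in a nerve terminal, primes them and fuses them with the membrane. They were chosen by name: a probe belonged to the set when the scanner file listed it as a non-control probe of 1 of the 35 symbols. This gave 64 of the 55681 probes on the array, and 34 of the 35 genes were measured, of 19751 genes in all. RNA came from the cortex of 8 male mouse pups of the inbred strain C57BL/6NCr at postnatal day 1.5, and each pup was hybridised to its own array. In the 4 pups of the ischemia group, clips had held the uterine arteries of the anesthetised mother shut for 14 min at E16.5, late in gestation, an acute prenatal loss of blood supply. The 4 pups of the control group are labelled as control only. The labels do not say whether their mothers had a sham operation or which pups were littermates, so the p-values below measure the spread between these pups. The question of the comparison, as the series states it, is how prenatal ischemia alters gene expression in the newborn cortex.

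Release follows a fixed order. Synapsins and other vesicle proteins keep vesicles clustered and filled, active zone scaffolds such as RIM, Bassoon and Piccolo hold them near calcium channels, and Munc13 proteins prime them. The SNARE proteins of vesicle and plasma membrane then zip together under the control of complexins, and calcium bound to a synaptotagmin triggers fusion, after which NSF and its SNAP adaptors take the SNARE complex apart. In the newborn rodent cortex most synapses have yet to form, and many of these genes are already transcribed by migrating and differentiating neurons.

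Values are log2 of the background-corrected signal minus the log2 of the 75th percentile of the same array, so 0 is the signal of a spot at that percentile. Differences are ischemia minus control on this log2 scale, with n = 4 arrays in each group. The cortical genes Emx1, Tbr1, Bcl11b and Neurod6, among those picked as a check after earlier results were known, were well above background on all 8 arrays. Their detection does not measure how much neighbouring tissue a sample held. Markers of neighbouring tissues differed between pups. Of 9 choroid plexus markers 5 were measured, and their median deviation from the control mean was -0.02 to 0.04 on control arrays and -0.36 to 3.28 on ischemia arrays, highest in ischemia 4. All 9 meningeal markers were measured, at -0.24 to 0.33 on control arrays and 0.11 to 1.31 on ischemia arrays, highest in ischemia 1. The 8 measured striatal markers stood at -0.02 to 0.21 on control arrays and -0.14 to 0.30 on ischemia arrays. For the 8 measured thalamic markers the medians were -0.18 to 0.16 and -0.17 to 0.02. For the 6 measured blood markers they were -0.51 to 0.38 and -0.89 to 0.05. All 8 arrays lay on 1 slide, with the controls in slide row 1 and the ischemia arrays in slide row 2, so row and group cannot be told apart.

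The release genes differed little between the groups. Of the 34 measured members, 0 passed limma's test at an adjusted p under 0.05, a threshold that 1 of 19751 genes passed (0.00506%). At an unadjusted p under 0.05 there was 1 member, Unc13a, against 10.9% of all genes. Unc13a was higher in ischemia, as were 3.25% of all genes at that threshold, and 0 members were lower, against 7.65% of all genes. Without control 4 there were 3, Unc13a, Syn3 and Vamp2, and 0 of them passed after adjustment. Leaving out any 1 array gave 1619 to 2404 of the 19751 genes at an unadjusted p under 0.05. The arrays of the groups did not overlap for 1 member, again Unc13a, and for 6.55% of all genes. In direction the members split into 20 higher and 14 lower in ischemia, where 43% of all genes were higher and 57% lower. The median difference of the members was 0.02, and that of all genes was -0.02. The members' median turned to -0.0083 with the mean of each gene's kept probes and to -0.016 with each kept probe taken alone.

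The differences were small as well as not called. The median absolute difference was 0.0457 among the members and 0.0886 among all genes. In 28 of 34 members the difference was at most 0.1, which is 1.07-fold, compared with 55.0% of all genes. The members also varied less over the 8 arrays, with a median range of 0.329 against 0.425 among all genes. Their median SE was 0.080, against 0.094. The median SE was 0.085 for the 85 other presynaptic genes described below and 0.074 for the pan-neuronal markers. A small spread was thus not particular to the members, and the sets were not matched for brightness. A difference above 0.2 was seen in 2 members, Unc13a at 0.22 and Sv2c at -0.30, and in 19.1% of all genes. The 95% intervals say how large a change these arrays could still hold. For 33 of 34 members the interval lay within 0.5 of 0, a 1.41-fold change in either direction (75.7% of all genes), with Sv2c as the exception. For 23 of 34 it lay within 0.3, a 1.23-fold change (45.4% of all genes). Cortical tissue is a mixture, so fewer cells of a type and less RNA per cell cannot be told apart in any of these values.

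**Figure D1:**
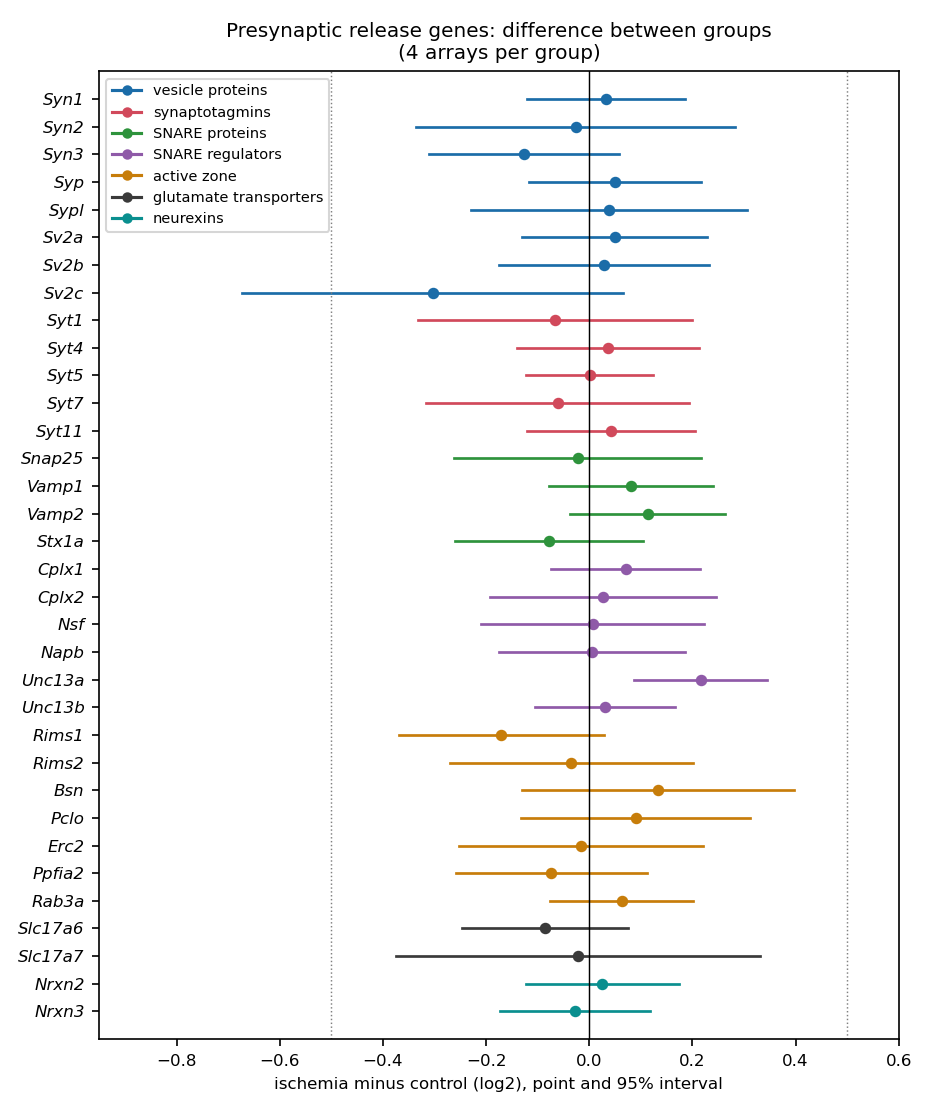
Difference between ischemia and control for the 34 measured release genes on the log2 scale (horizontal axis), with 1 row per gene and colour by role. Points are limma estimates and bars their 95% intervals, 4 arrays per group; dotted lines stand at 0.5 on either side of 0, and the interval of Unc13a is the only one of the 34 that leaves out 0.

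Small differences also had no firm direction. Across 20 alternative settings per gene, 15 of 34 members kept the sign of their difference throughout, 9 of them higher and 6 lower in ischemia. The 9 were Syn1, Sv2a, Vamp1, Vamp2, Cplx1, Unc13a, Unc13b, Bsn and Rab3a, and the 6 were Syn3, Sv2c, Stx1a, Rims1, Ppfia2 and Slc17a6. Leaving out 1 array was enough to turn the sign of 17 members. These sign counts were not taken over all genes.

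Among the vesicle proteins, 5 of 8 were higher and 3 lower in ischemia, and 0 passed the adjusted or the unadjusted threshold. Syn1 encodes synapsin I, which tethers vesicles in the reserve pool. It read 4.29, 4.23, 4.29 and 4.47 on control arrays 1 to 4 and 4.33, 4.34, 4.32 and 4.42 on ischemia arrays 1 to 4. The ischemia values all fell inside the control range, and the difference was 0.03 (SE 0.067). Syn2, synapsin II, read 3.57, 3.76, 3.61 and 4.17 in controls and 3.83, 3.58, 3.75 and 3.85 in ischemia. Control 4 stood well above the other 7 arrays, and the difference was -0.03 (SE 0.135). Its second probe, made for NM_001111015, gave 0.12.

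Syn3, the synapsin found early in neuronal development, read -1.88, -1.95, -1.97 and -2.18 in controls and -2.18, -2.04, -2.07 and -2.21 in ischemia. All 4 ischemia arrays lay below controls 1 to 3, while control 4 lay among them. The difference was -0.13 (SE 0.080, adjusted p = 0.624 by limma), and -0.19 without control 4. This was a dim probe, with linear signals of 78.9 to 94.6. The other kept Syn3 probes gave -0.21 (SE 0.225) and -0.14 (SE 0.208). Syp encodes synaptophysin, the most used marker of vesicles. Its values were 4.08, 4.2, 4.22 and 4.23 in controls and 4.39, 4.22, 4.13 and 4.19 in ischemia, with a difference of 0.05 (SE 0.073). Ischemia 1 was above every control, and the other ischemia arrays were inside the control range. Sypl, a relative of synaptophysin made in many tissues, read 0.98, 1.22, 0.74 and 1.14 in controls and 1.15, 1.00, 0.89 and 1.19 in ischemia. All 4 ischemia values fell inside the control range, with differences of 0.04 for the probe used and -0.0054 for the other.

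The SV2 proteins are transporter-like glycoproteins of the vesicle membrane, and SV2A is the binding site of the antiepileptic drug levetiracetam. Sv2a differed by 0.05 and Sv2b by 0.03. Sv2c, which in the adult is found mainly in the basal ganglia, had the largest difference of the 34 measured members. It read -3.19, -2.85, -3.25 and -2.93 in controls and -3.14, -3.24, -3.82 and -3.24 in ischemia. Ischemia 3 was far below the other 7 arrays, whereas the other ischemia arrays lay inside the control range. The difference was -0.30 (SE 0.16, adjusted p = 0.542), and -0.15 without ischemia 3. This was a dim probe, with linear signals of 26.9 to 51.4 against array 75th percentiles of 305.6 to 393.3, and the 2 other Sv2c probes were not well above background on any array.

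Of the 6 synaptotagmins 5 were measured, 3 higher and 2 lower, with differences between -0.07 and 0.04. Syt1, the calcium sensor of fast release in forebrain neurons, read 5.43, 5.28, 5.41 and 5.70 in controls and 5.16, 5.33, 5.56 and 5.50 in ischemia. The groups overlapped, since ischemia 1 was the lowest array and control 4 the highest, and the difference was -0.07 (SE 0.116). Syt7, a slower sensor with high calcium affinity, differed by -0.06. Syt4 and Syt11, whose proteins do not bind calcium as synaptotagmin 1 does, each differed by 0.04. Syt5 showed the narrowest spread of the 34 measured members, from 5.71 to 5.83 over the 8 arrays, with a difference of 0.00087. Syt2, the fast sensor of hindbrain and spinal cord synapses, was well above background on 0 of 8 arrays, with linear signals of 5.37 to 7.68, and has no comparison here.

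The 4 SNARE genes encode the fusion machinery itself, and 2 were higher and 2 lower in ischemia. Vamp2 encodes synaptobrevin 2, the vesicle SNARE of most forebrain synapses. It read 4.30, 4.28, 4.34 and 4.47 in controls and 4.53, 4.47, 4.46 and 4.38 in ischemia. All 4 ischemia arrays lay above controls 1 to 3, and control 4 lay among them. The difference was 0.11 (95% interval -0.04 to 0.26, adjusted p = 0.583), and without control 4 it was 0.16 with an adjusted limma p of 0.391. Vamp1, the related SNARE that predominates in brainstem and spinal cord, read -2.51, -2.43, -2.43 and -2.42 in controls and -2.49, -2.23, -2.32 and -2.42 in ischemia. Ischemia 2 and 3 were above every control, and ischemia 1 was near the lowest. The difference was 0.08 (SE 0.070).

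The SNAREs of the plasma membrane had small differences below 0, and that of Snap25 turned to 0.0025 with quantile normalization. Snap25 read 4.61, 4.54, 4.82 and 4.46 in controls and 4.63, 4.75, 4.59 and 4.37 in ischemia, with a difference of -0.02 (SE 0.105). The highest array was a control and the lowest an ischemia array, so the groups overlapped. Stx1a, syntaxin 1A, read 2.65, 2.74, 2.87 and 2.78 in controls and 2.82, 2.68, 2.53 and 2.72 in ischemia. Ischemia 3 was below every control, and the rest were inside the control range, with a difference of -0.08 (SE 0.079).

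All 6 genes that control SNARE assembly or take it apart had a difference above 0, from 0.0054 for Napb to 0.22 for Unc13a. The sign held under normexp correction, quantile normalization and median scaling, but Cplx2, Nsf and Napb turned with the mean of the probes and when 1 array was left out. Unc13a, which encodes the priming factor Munc13-1, stood furthest from 0 relative to its error. The probe used for it, made for the transcript AK141188 and placed on the minus strand at chr8:74148542-74148601 (mm9), read -2.24, -2.20, -2.21 and -2.10 in controls. In ischemia it read -1.96, -1.95, -2.03 and -1.94. Every ischemia array was above every control, by at least the gap from -2.10 to -2.03. The difference was 0.22 (SE 0.056, unadjusted p = 0.0046 and adjusted p = 0.272 by limma), and it ranged from 0.20 to 0.24 when any 1 array was left out.

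The second Unc13a probe did not show this. Made for NM_001029873 and placed at chr8:74154416-74154475, it read -2.38, -2.44, -2.10 and -2.32 in controls and -2.28, -2.15, -2.39 and -2.47 in ischemia. The groups overlapped and the difference was -0.0094 (SE 0.10). The gap between the probes was 0.12 in controls and 0.35 in ischemia. It was wider in ischemia by 0.23 (SE 0.104, adjusted p = 0.671 by limma over the 5359 genes with at least 2 kept probes, of which 0%, or 0 genes, passed). Both probes were dim, with linear signals of 56.1 to 102.5. The difference of the gene was 0.10 with the mean of both probes and 0.07 with normexp background correction, and in neither case did limma's unadjusted p reach 0.05. The first 30 bases of each probe are given because the probes report different pieces of the locus.
Unc13a AK141188 probe: acatatgagcagccaagggacacctgagat
Unc13a NM_001029873 probe: agttcgccaccaaatccaaaaacaacagct

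Unc13b, encoding Munc13-2, differed by 0.03 (SE 0.059). Cplx1, a complexin that clamps and then promotes fusion, read 3.66, 3.76, 3.83 and 3.79 in controls and 3.91, 3.85, 3.76 and 3.80 in ischemia. Ischemia 1 and 2 were above every control, the other ischemia arrays were inside the control range, and the difference was 0.07 (SE 0.063). Nsf, the ATPase that disassembles used SNARE complexes, read 3.31, 3.18, 3.24 and 3.51 in controls and 3.28, 3.18, 3.31 and 3.49 in ischemia. The ischemia values covered nearly the same span as the controls, with a difference of 0.0069, while a dim second probe for ENSMUST00000107009 gave -0.25 (SE 0.229). Napb, the brain form of the SNAP adaptor for NSF, read 2.71, 2.72, 2.90 and 2.99 in controls and 2.87, 2.79, 2.79 and 2.90 in ischemia. All ischemia values were inside the control range, and its probes gave 0.0054 and -0.04.

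Cplx2 had 5 probes, and their sequences bear on how its values can be read. Of the 5, 4 consist only of A and G along all 60 bases, which holds for 23 of the 55681 probes on the array (0.0413%). The probe used for the gene is among the 4. The deposited positions of 2 others are chr13:108816800-108816859 and chr5:112438094-112438174 (mm9), away from the gene. The remaining probe lies at chr13:54485200-54485259 and has a mixed sequence. The first 30 bases of these last 3 probes are shown to set the purine-only kind beside the mixed kind.
Cplx2 probe at 108816800: aggaggaggaggaggaggaggaggaggagg
Cplx2 probe at 112438094: aaggaggaggaggaggaggagaaggaagag
Cplx2 probe at 54485200: tccccactttgtatgatgcaaatgctaaga

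The purine-only probe used read 6.83, 6.68, 6.79 and 6.84 in controls and 6.64, 6.75, 7.07 and 6.80 in ischemia, a difference of 0.03 (SE 0.096). Ischemia 3 was the highest array and ischemia 1 the lowest. The other 3 purine-only probes, with differences of -0.04, -0.09 and -0.09, were each highest in control 1. The mixed-sequence probe read 6.00, 6.2, 6.22 and 6.21 in controls and 6.35, 6.16, 6.19 and 6.14 in ischemia, a difference of 0.05 (adjusted p = 0.858). Here ischemia 1 was the highest array and control 1 the lowest. All 23 purine-only probes of the array passed the filter, and 15 of them were highest in control 1, compared with 12.8% of all kept probes. Their median deviation from the control mean was 0.23, -0.18, 0.06 and -0.09 in controls 1 to 4 and -0.16, -0.05, 0.11 and -0.11 in ischemia 1 to 4. The 23 include the 4 of Cplx2. Like this median, 3 of the 4 were highest in control 1, whereas the probe used for the gene was highest in ischemia 3. Neither kind of Cplx2 probe gave a difference past the threshold.

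**Figure D2:**
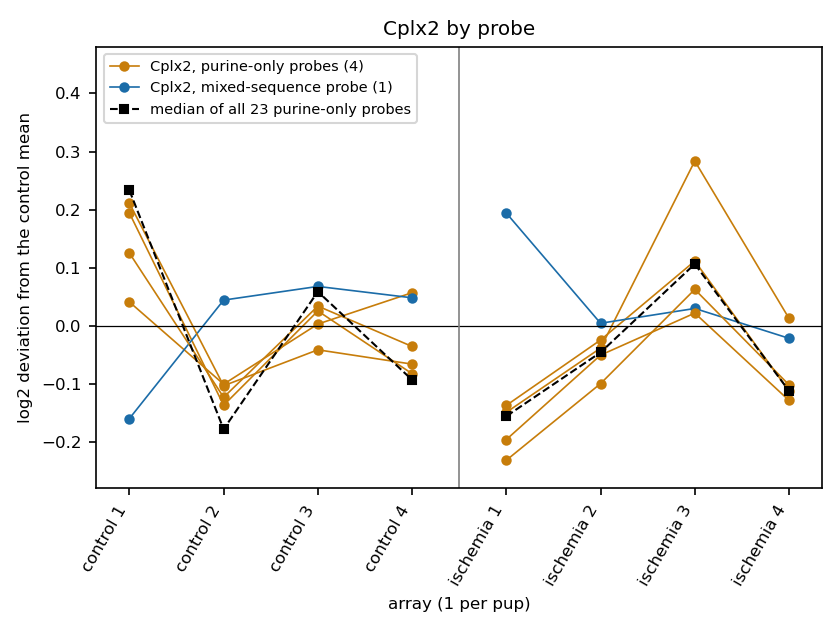
Log2 deviation of the 5 Cplx2 probes from their control mean (vertical axis) on each of the 8 arrays (horizontal axis), with the median of all 23 purine-only probes of the array in black; lines only connect the arrays of 1 probe. The black line and 3 of the 4 purine-only Cplx2 probes are highest in control 1, the purine-only probe used for the gene is highest in ischemia 3, and the mixed-sequence probe is lowest in control 1 and highest in ischemia 1.

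The 7 active zone genes were 3 higher and 4 lower in ischemia, and 0 passed the unadjusted threshold. Rims1 encodes RIM1, the scaffold that binds Rab3 on the vesicle and calcium channels in the membrane. The probe used, made for NM_001012625 at chr1:22545140-22545199, read -0.94, -0.78, -0.64 and -0.94 in controls and -0.98, -0.88, -1.04 and -1.09 in ischemia. Of the ischemia arrays, 3 lay below every control and ischemia 2 among them. The difference was -0.17 (95% interval -0.37 to 0.03, adjusted p = 0.523). Its other probe, for NM_053270 at chr1:22278591-22278650, gave 0.09 (SE 0.146), and the mean of both gave -0.04. Rims2, the gene of RIM2, differed by -0.03.

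Bsn encodes Bassoon, a very large scaffold that arrives at new synapses early. It read 1.62, 1.45, 1.93 and 1.86 in controls and 1.75, 1.96, 1.92 and 1.77 in ischemia. Ischemia 2 was slightly above every control and the other ischemia arrays were inside the control range, with a difference of 0.13 (SE 0.115, adjusted p = 0.733). Erc2, the active zone protein CAST, differed by -0.02 with the probe used and by -0.20 (SE 0.104) with another. Ppfia2, liprin-alpha-2, differed by -0.07, and Rab3a, the vesicle GTPase that RIM binds, by 0.06.

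Pclo, the gene of Piccolo, had probes that differed in how they read the groups. From the 5′ side, 2 probes made for NM_001110796 lie at chr5:14682209-14682268 and chr5:14795934-14795993, and 2 made for NM_011995 at chr5:14855569-14855628 and chr5:14863399-14863458, all on the plus strand. Of these, the probes at 14795934 and 14863399 hold the hexamer AATAAA within their last 30 bases. AATAAA is the usual polyadenylation signal when it sits near the end of a transcript. Searched on the probe strand only, it occurs in 9 of the 64 member probes (14.1%) and in 10.1% of all probes. The last 30 bases of each probe follow, with the hexamer in capitals.
Pclo probe at 14682209: aagtactccatccagatatggctaaagttc
Pclo probe at 14795934: aagtgcctgtgtAATAAAtaaagtatcttt
Pclo probe at 14855569: gatggtgaacaactaatagttgaaattctc
Pclo probe at 14863399: cagccttactAATAAAtactgaaactatca

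The probe at 14795934, used for the gene, read 2.10, 2.08, 2.44 and 2.34 in controls and 2.27, 2.35, 2.44 and 2.25 in ischemia. The ischemia values were inside or at the edge of the control range, and the difference was 0.09 (SE 0.097). The probe at 14682209 differed by -0.02. The NM_011995 probes lay lower in ischemia. At 14855569 the values were -1.46, -1.31, -1.23 and -1.16 in controls and -1.61, -1.71, -1.28 and -1.67 in ischemia. Ischemia 1, 2 and 4 were below every control and ischemia 3 was among them, with a difference of -0.28 (limma, unadjusted p = 0.035 and adjusted p = 0.454 over all kept probes). At 14863399 the difference was -0.25 (SE 0.153).

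The disagreement was tested within arrays, as the used probe minus the mean of the other 3. This gap was 2.72, 2.58, 2.77 and 2.66 in controls and 2.96, 2.99, 2.91 and 2.93 in ischemia, so every ischemia array was above every control. How many genes with several probes have a gap that separates the groups in this way was not counted. The gap was wider in ischemia by 0.27 (SE 0.061, limma's unadjusted p = 0.00218). Of the 5359 genes with several probes, 7.58% had an unadjusted p under 0.05 by limma. The Pclo gap did not pass after adjustment over those genes (adjusted p = 0.432). The widening in ischemia ranged from 0.24 to 0.30 over 12 alternative settings, and its adjusted limma p from 0.232 to 0.602. Taken by accession, a grouping made after the values were seen and so not tested, the NM_001110796 pair minus the NM_011995 pair was 1.19, 1.04, 1.08 and 0.88 in controls and 1.49, 1.46, 1.09 and 1.36 in ischemia. Ischemia 3 fell among the controls and the other ischemia arrays above all of them.

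**Figure D3:**
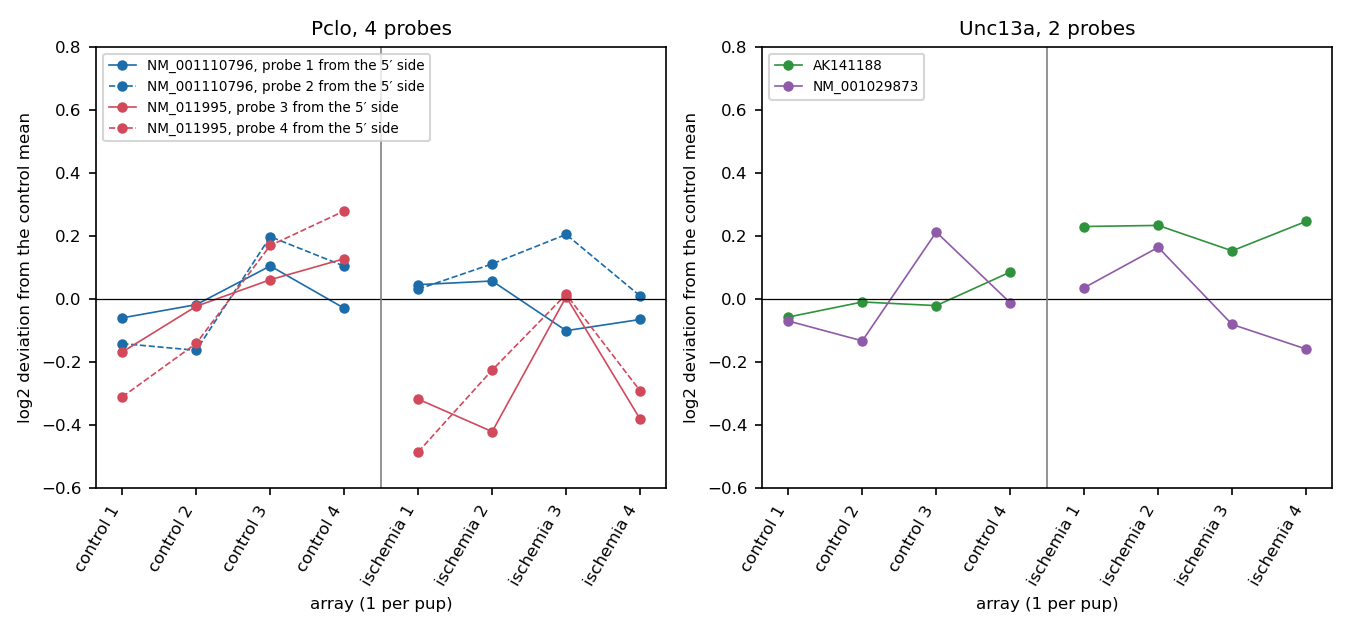
Log2 deviation from the control mean (vertical axis) on each of the 8 arrays (horizontal axis) for the 4 Pclo probes, left, and the 2 Unc13a probes, right; lines only connect the arrays of 1 probe. On the left the NM_011995 probes lie low in ischemia 1, 2 and 4 while the NM_001110796 probes do not, and on the right only the AK141188 probe is higher in all 4 ischemia arrays.

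Both vesicular glutamate transporters had a difference below 0, though that of Slc17a7 turned to 0.0017 with array weights and when 1 array was left out. Slc17a6 encodes VGLUT2, the form used early in development and by thalamic axons. It read 0.34, 0.59, 0.49 and 0.56 in controls and 0.36, 0.40, 0.39 and 0.49 in ischemia. Control 1 was the lowest of the 8 arrays, and the difference was -0.09 (SE 0.070), or -0.14 without control 1. Slc17a7 encodes VGLUT1, which takes over at cortical synapses after birth. It read -0.95, -0.76, -0.89 and -0.36 in controls and -0.66, -0.95, -0.93 and -0.50 in ischemia. Control 4 and ischemia 4 were the highest, the groups overlapped, and the difference was -0.02 (SE 0.154). Without control 4 it was 0.11.

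Neurexins are presynaptic adhesion proteins that bind neuroligins across the cleft. Nrxn2 differed by 0.03 (SE 0.065) and Nrxn3 by -0.03 (SE 0.063). All 5 kept Nrxn3 probes had differences below 0, from -0.20 for the NM_001252074 probe to -0.02, and 0 of the 5 had an unadjusted p under 0.05.

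Related genes were also set against each other within each array, which removes whatever an array does to both. The test was an exact permutation test, two-sided, over all 70 ways to label the arrays, which can give no p below 0.0286. After adjustment over 10 pairs a lone pair at that p could not pass 0.05, so only the unadjusted p is read here, and 0 of 10 pairs had it under 0.05. Unc13a minus Unc13b was higher by 0.19 in ischemia, at -4.17 ± 0.070 in controls and -3.99 ± 0.10 in ischemia (SD, n = 4; exact permutation p = 0.0857, adjusted over the 10 pairs 0.571). It was 0.23 without ischemia 3, at the smallest exact p of 0.0286, 0.03 with normexp and 0.07 with the mean of probes. Rims1 minus Rims2 differed by -0.14, at 0.55 ± 0.11 in controls and 0.42 ± 0.093 in ischemia (SD, n = 4; exact permutation p = 0.114, adjusted 0.571). The other 8 pairs, among them Vamp1 with Vamp2 and Slc17a7 with Slc17a6, differed by -0.10 to 0.06, with an adjusted exact p of 0.83.

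Pups of the same group differed from each other as much as the groups did. The median deviation of the 34 members from their control means was -0.07, -0.02, 0.02 and 0.09 in controls 1 to 4. In ischemia 1 to 4 it was -0.0035, -0.0069, 0.00039 and 0.03. The ischemia arrays all lay inside the span of the controls. The mean of the ischemia arrays was inside the control range for 29 of 34 members, against 67.7% of all genes, and the 5 outside it were Syp, Sv2c, Vamp1, Unc13a and Rims1. All 4 ischemia arrays were inside it for 11 members, against 18.7% of all genes.

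The widest contrast was between 2 controls, a pattern noticed in the values and not tested. Control 4 was above control 1 in 31 of 34 members, all but Syn3, Snap25 and Rims2, and in 47.7% of all genes. The count was 28 of 34 with normexp, where 47.4% of all genes were higher, and 30 of 34 with quantile normalization (51.6%). With median scaling it was 33 of 34, but 85.2% of all genes were then higher as well. Among the 4 controls, control 1 was the lowest for 16 members, against 24.0% of all genes. Control 4 was the highest for 18 members, also against 24.0% of all genes. The median difference of the members was -0.0069 without control 1, -0.0024 without control 2, -0.0047 without ischemia 4 and 0.06 without control 4.

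**Figure D4:**
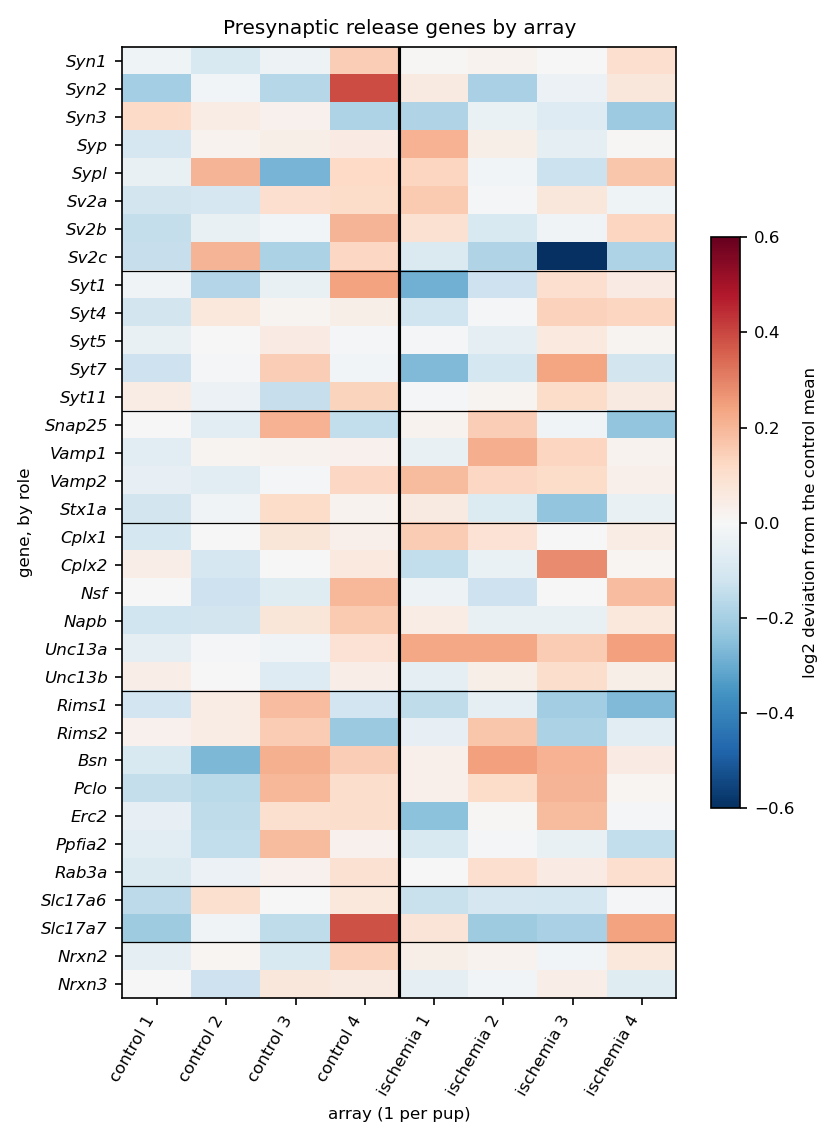
Log2 deviation from the control mean (colour) for the 34 measured release genes, in rows grouped by role, on each of the 8 arrays, in columns with controls left of the thick line. Red is above and blue below the control mean; Unc13a is the only row in which all 4 ischemia cells are above every control cell, and the control 1 column is mostly blue while the control 4 column is mostly red.

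A wider list of 94 other presynaptic genes held few differences at the unadjusted threshold and 0 after adjustment. Of these, 85 were measured, 39 higher and 46 lower in ischemia, with a median difference of -0.01 and a range from -0.54 to 0.81. For 78 of 85 the 95% interval lay within 0.5 of 0. The highest value was that of Syt17, a synaptotagmin relative named here after its values were seen. It read -3.42, -3.07, -2.63 and -3.28 in controls and 0.16, -3.20, -2.73 and -3.38 in ischemia, so ischemia 1 alone stood apart (adjusted p = 0.742 by limma). By limma 0 passed after adjustment, and 5 had an unadjusted p under 0.05, compared with 10.9% of all genes. That count was 2 without control 2 or control 3, 3 without control 1 or ischemia 3, and 9 without control 4. Over all genes, leaving out 1 array gave 1619 to 2404 at that threshold. Dnm1, the dynamin that pinches off endocytic vesicles, read 4.29, 4.30, 4.27 and 4.40 in controls and 4.75, 4.47, 4.62 and 4.48 in ischemia. Every ischemia array was above every control, with a difference of 0.26 (unadjusted p = 0.00807 by limma). The groups did not overlap for 4 of the 85 genes, against 6.55% of all genes. Rims3, a short RIM protein, and Syngr3, a synaptogyrin, each differed by 0.14. Among genes lower in ischemia, the smallest p-values were those of Cplx3, a complexin of subplate neurons, at -0.54, Rab27b, a GTPase of secretory vesicles, at -0.29, and Slc6a11, a GABA transporter, at -0.17. The Cplx3 probe was dim, with a mean of -2.62 in controls and -3.16 in ischemia. Slc6a11 did not reach the unadjusted threshold (unadjusted p = 0.0603 and adjusted p = 0.479 by limma). By role, endocytosis genes were 10 higher and 12 lower, and active zone and adhesion genes 10 higher and 6 lower. Of the pan-neuronal markers 4 were higher and 9 lower, with a median difference of -0.04.

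**Figure D5:**
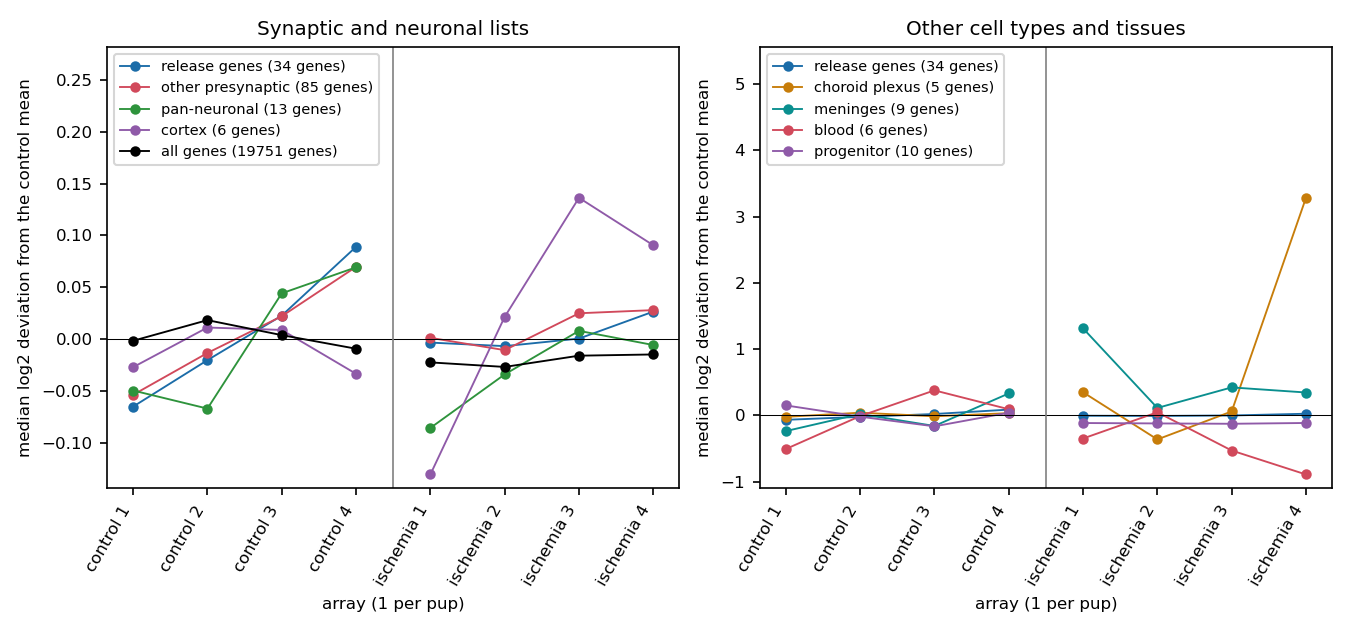
Median log2 deviation of gene lists from their control mean (vertical axes, of different scale) on each of the 8 arrays (horizontal axis); lines only connect the arrays of 1 list and group. On the left the release genes, the other presynaptic genes and the pan-neuronal markers all stand lower in control 1 than in control 4, and on the right choroid plexus markers reach 3.28 in ischemia 4 and meningeal markers 1.31 in ischemia 1 while the release genes stay near 0.

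The count was also taken without the arrays with the most choroid plexus and meningeal signal. With ischemia 1 and 4 set aside, a choice made after seeing the data, 0 release genes passed after adjustment and their median difference was 0.0063. Unc13a and Sv2c had an unadjusted p under 0.05, with differences of 0.19 and -0.47 and adjusted limma p-values of 0.428 and 0.432. Over the 21 alternatives, of which this is 1, 1332 to 2742 of all genes were under that unadjusted threshold. With each probe alone the count is of probes.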

How the data were processed

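Agilent Feature Extraction 10.7.3.1 produced the spot values, per the file headers. The authors deposited these as intensities on a linear scale, and the processed signal, already corrected for background, was used. The authors' deposited value table holds a ratio. Its column medians were 0.0836 to 0.1003. A check left out the dimmer spots of each column, among them all below its median. It found the brighter spots to be the processed signal over a constant of their array (within 0.0099%). The meaning of that constant is not known. Values rise with the signal, so direction is known, and the table served as an alternative.

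Signals were scaled to each array's 75th percentile and taken as log2. Spots of a probe were averaged, 26 probes with outlier spots were dropped, and probes well above background on at least 4 of 8 arrays were kept (27131). The share of spots well above background was 47.6% to 51.7%, with 0 saturated. Precision is limited by the number of arrays. A gene's value is its kept probe with the highest mean. Names were updated with RefSeq GRCm38.p6 for 27235 probes by accession and 3581 by current and 565 by older symbol. Probe coordinates are those of the files (mm9). Exon or UTR position was not analysed here.

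Groups were compared with limma 3.58.1 in R 4.3.3 (lmFit, eBayes, Benjamini-Hochberg over all 19751 genes, threshold 0.05, two-sided). Probes were set against the other probes of their gene in the same way, over 5359 genes, and 10 gene pairs by exact permutation. The steps were tested on simulated data. The members, lists and tests were chosen with earlier results of these data known. Values on every array are given for the 5 members in each direction with the smallest p, those with probes of unlike sign and 8 taken whatever their values (Syn1, Snap25, Syt1, Syp, Vamp2, Stx1a, Slc17a6, Slc17a7). Of the other presynaptic genes the 3 with the smallest p in each direction are named. Alternatives were other corrections, scalings, filters, probe rules, variance models, array weights, the replicate number as a block, the authors' table and each array left out.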

Additional observations from a re-analysis of the deposited data

Results flagged for a closer look

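In 84 groups of 4 arrays, 2 held an array far from the other 3, where chance alone would give 4.2. The groups came from the measured release genes and from medians of gene lists. The lists were release, other presynaptic, pan-neuronal, choroid plexus, meningeal, blood, progenitor and microglial genes. For Sv2c, ischemia 3 was low, with a gap to the nearest array of 0.857 of the group's range. For Vamp1, control 1 was low, with a gap of 0.919 of the range, although that range was narrow, from -2.51 to -2.42.

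Probes that the filter left out held signal in ischemia arrays only in 2 cases. A Nrxn3 probe for NM_001198587 was well above background on 2 ischemia arrays and 0 control arrays, with a highest linear signal of 27.97, where controls reached 24.1. A Vamp1 probe for ENSMUST00000159547 was well above background on ischemia 2 alone, at a linear signal of 98.0, where the controls read 4.56 to 5.45 and the other ischemia arrays 6.30 to 20.8.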

How the results depend on the processing

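Across 21 alternatives, 0 release genes passed the adjusted threshold in any of them, and 16 to 23 of 34 had a difference above 0 (24 of 56 probes with each probe alone). Control and ischemia arrays of the same number were correlated over all genes, on the deviation of each gene from its own group's mean. By this measure the arrays numbered 1 correlated at 0.08 and those numbered 2 at -0.06, so the replicate numbers were not taken as pairs. Those numbered 3 and 4 correlated at 0.29 and 0.39, each best with its own number. With the replicate block, 0 genes in all passed, and 2 release genes and 3 other presynaptic genes had an unadjusted p under 0.05. The 1 gene that passed in all became 0 with normexp, quantile normalization, the filter on all 8 arrays, no filter, each probe alone and ischemia 1 and 4 set aside, 2 with median scaling, and 20 with trended robust variance. Median scaling left 1332 genes with an unadjusted p under 0.05. The 21 alternatives gave 1332 to 2742 genes in all, or probes with each probe alone. At that threshold, release genes numbered 0 with median scaling, the mean of probes and trended robust variance, and 2 with each probe alone and with ischemia 1 and 4 set aside. Other presynaptic genes numbered 2 with median scaling, 3 with no filter and 12 with each probe alone. In the test of a probe against its gene's other probes, 1 gene in all passed adjustment with normexp. In that test 2 members had an unadjusted p under 0.05 with normexp, quantile normalization and the filter on all 8 arrays. In the main setting it covered the 13 members with at least 2 kept probes, and 1 of them was under that threshold. The share of all genes under it was 7.58% in the main setting and was not counted in the alternatives.

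Among pairs, Rims1 minus Rims2 was -0.13 with normexp and Bsn minus Pclo 0.25 with the mean of probes, both at the smallest exact p of 0.0286, which Unc13a minus Unc13b also reached without ischemia 3. Cplx1 minus Cplx2 turned to -0.0060 with quantile normalization and Syn1 minus Syn2 to -0.013 with the mean of probes. Signs turned for Erc2 (0.039 with normexp, 0.0077 with quantile normalization, 0.00059 with array weights), Snap25 (0.0025 with quantile normalization), Syt5 (-0.0064) and Slc17a7 (0.0017) with array weights. With the mean of probes they turned for Syn2 (0.045), Cplx2 (-0.029), Nsf (-0.12), Napb (-0.017) and Pclo (-0.11). With ischemia 1 and 4 set aside they turned for Syp (-0.0091), Sypl (-0.073), Sv2b (-0.055), Syt7 (0.065), Snap25 (0.063), Nsf (-0.064), Napb (-0.042), Erc2 (0.099) and Nrxn3 (0.011). The cause was not tested.

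Leaving out each array gave 0 to 1 genes passing in all. In the probe test, 1 to 3 of the 13 members with at least 2 kept probes had an unadjusted p under 0.05. The share of all genes in the probe test was not counted there. In the test of genes between the groups, 1 to 3 release genes and 2 to 9 other presynaptic genes had an unadjusted p under 0.05. The count of all genes at that unadjusted threshold was then 1619 to 2404. Differences ran from -0.058 to 0.086 for Cplx2, -0.084 to 0.062 for Erc2, -0.034 to 0.058 for Napb, -0.0055 to 0.071 for Nrxn2, -0.053 to 0.073 for Nsf, -0.11 to 0.018 for Rims2, -0.11 to 0.11 for Slc17a7, -0.079 to 0.049 for Snap25 and -0.019 to 0.096 for Sv2b. They ran from -0.094 to 0.10 for Syn2, -0.0031 to 0.084 for Syp, -0.055 to 0.11 for Sypl, -0.12 to 0.016 for Syt1, -0.0041 to 0.086 for Syt11, -0.00027 to 0.088 for Syt4, -0.018 to 0.020 for Syt5 and -0.16 to 0.0075 for Syt7. Pairs ran from -0.043 to 0.15 for Cplx1 minus Cplx2, -0.0018 to 0.097 for Nrxn2 minus Nrxn3, -0.0096 to 0.080 for Sv2a minus Sv2b, -0.023 to 0.12 for Syn1 minus Syn2, 0.15 to 0.23 for Unc13a minus Unc13b and -0.074 to 0.034 for Vamp1 minus Vamp2. Low signal over background is a limit for the dim Syn3, Sv2c, Vamp1, Unc13a and Cplx3 probes.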

Other observations

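Of the 64 probes for release genes, 56 passed the filter and 8 did not. Among the 8, both left-out Sv2c probes, the left-out Erc2 probe for AK032385 and the Vamp2 probe for ENSMUST00000117780 were well above background on 0 arrays, with linear signals of at most 23.9, 14.0 and 21.7. The kept probe of each of these genes was well above background on all 8 arrays.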
